A study of Mus musculus with 12 samples.

Results

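Internal 2-exon circRNAs are circular RNAs that consist of 2 neighbouring exons of a protein-coding gene and start at exon 3 or later. They were taken from a deposited table of 16445 circRNAs of mouse liver by 4 criteria. The span was below 50000 bases, both ends lay on exon boundaries of 1 GENCODE M21 protein-coding transcript, exactly 2 exons lay between them, and the first of these was exon 3 or higher. This gave 3232 circRNAs, 19.7% of the table, from 2106 host genes.

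The strain of the 12 mice is labelled C57BL/8, and neither age nor sex is stated. Fibrosis was produced in all 12 with injections of 10% carbon tetrachloride (CCl4), which damages the liver, at 10 µl per 10 g of body weight, 2 times a week, until collection of the livers at week 8. Control (6 mice) stands for the toxin without further treatment. PZH (6 mice) stands for the toxin together with Pien Tze Huang, a compound preparation of Chinese medicine, at 25 mg/ml once a day over weeks 2 to 8. No group without CCl4 was analysed here, so every comparison is CCl4 plus PZH against CCl4. Each value is a back-splice junction signal in SRPBM, a unit that relates spliced reads to the number of reads mapped in the library. Each counts reads over 1 junction, so values of different circRNAs were compared without division by length.

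A circRNA forms when the splicing machinery joins the 5′ splice site of a later exon to the 3′ splice site of the same or an earlier exon, in competition with the linear splicing of the same pre-mRNA. Long flanking introns, and sequences in them that pair with each other, are known to favour this joining. A circle of 2 exons usually has its inner intron removed, lacks a cap and a poly(A) tail, and outlasts most linear mRNAs because exonucleases cannot enter it. Many circRNAs start at exon 2, behind the long first intron, and the internal circles described here use splice sites farther down the gene.

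The junction sequence distinguishes a circle from its linear mRNA. The following junctions are shown because 4 abundant circles, the 5 lower circles with separated groups and the 2 circles with the smallest p among those higher in PZH are described by them. Each line gives, 5′ to 3′ on the gene's strand, the last 15 bases of the second exon in lower case and the first 15 bases of the first exon in capitals. The letters come from GENCODE M21 transcripts (GRCm38).
Adk exons 5 to 6, chr14:21234833-21240571, plus strand: gtttactacatagctTGGTTGATTCAGGAG
Rad52 exons 10 to 11, chr6:119920110-119921028, plus strand: ttctaggtagcagagCAGTACTTCCAGCCC
Abcc2 exons 5 to 6, chr19:43798407-43799145, plus strand: tagttggtatgacagGATAGCAAGTCCAAC
Alg12 exons 6 to 7, chr15:88811297-88812159, minus strand: aggctgcacctatatGGCTGACGGTTGCTG
Ddx17 exons 3 to 4, chr15:79541034-79542586, minus strand: gggaagacattggcgTATGAGGTTGATGAG
Pzp exons 16 to 17, chr6:128498959-128502340, minus strand: cggcaatgggaggagATCTACAATTTGCTG
Crebbp exons 4 to 5, chr16:4137366-4138985, minus strand: agcgaaaccaacaaaTCCCAGTTGCAAACA
Zfp568 exons 5 to 6, chr7:29997750-29998210, plus strand: ggagacgctctccagAAAACAGTGACATTC
Dnajc1 exons 7 to 8, chr2:18284623-18294044, minus strand: acacagaaaagacagGATGCTGGGCAGTTT
Cdk14 exons 3 to 4, chr5:5227164-5249228, minus strand: caaagggaaaagcaaATATGTGTCACAAAG
Sf3a2 exons 7 to 8, chr10:80803583-80803888, plus strand: agagaaaccaagcagATTGACTACCCTGAG
The lower-case stretch ends in AG for Rad52, Abcc2, Pzp, Zfp568, Dnajc1 and Sf3a2. The second exon ended in AG in 57.3% of the 3232 circles and in G in 80.1%, and the first exon began with G in 45.2%. The join AG to G occurred in 26.1%. Only the exon side of the splice sites was examined.

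Nearly all of these circles were coding sequence. Both exons were wholly coding in 3086 circles (95.5%), 129 held part of a UTR and 17 lay within UTRs. The annotated exon length had a median of 271 bases (quartiles 219 and 330, range 78 to 2556), and 1248 lengths (38.6%) were multiples of 3. The first exon was exon 3 in 538 circles (16.6%), its median number was 7, and the farthest pair was exons 128 to 129. All matching transcripts gave the same class for 2908 circles (89.98%), and 12 had more than 1 possible host gene.

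The introns outside the circles were long, and the intron inside was not. The median intron was 3807 bases before the first exon, 3552 bases after the second exon and 1687.5 bases between them. The same transcripts held 27923 other neighbouring exon pairs, whose corresponding medians were 1570, 1445 and 1613 bases. Both flanking introns exceeded 1 kb for 80.2% of the circles and for 44.2% of the other pairs, while exon lengths were alike (median 271 against 258 bases). The exon lengths were a multiple of 3 in 38.6% of circles against 41.5% of other pairs. These are descriptions of the annotation without a test.

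**Figure D1:**
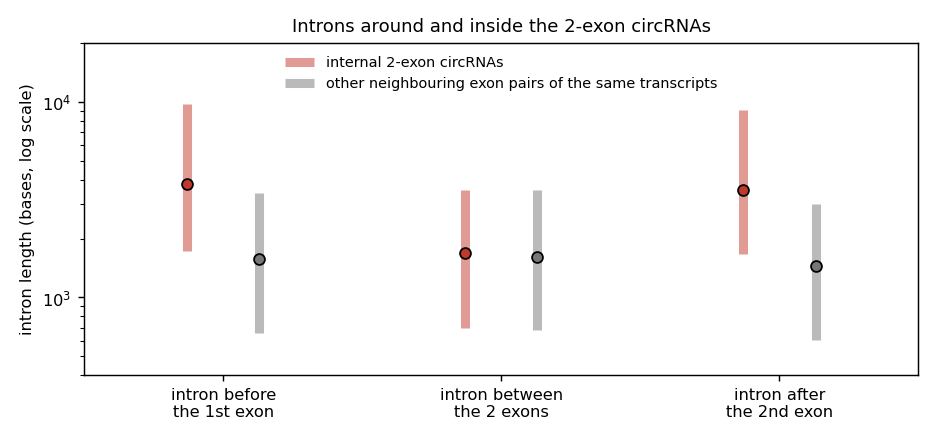
Intron lengths in bases on a log scale for the internal 2-exon circRNAs (red) and for other neighbouring exon pairs of the same transcripts (grey); points are medians and bars run from the first to the third quartile. The flanking introns of the circles have medians of 3807 and 3552 bases against 1570 and 1445 bases for other pairs, while the inner introns have similar medians.

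Circles of this class often shared a splice site with another circle. A start or end was shared with another circRNA of the table by 1929 circles (59.7%), and 213 pairs of internal 2-exon circles overlapped by 1 exon. Of the host genes, 1418 gave 1 such circle and 270 gave 3 or more. The circle was the only circRNA of its host in 422 cases.

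Most of the signal sat in few circles. Of 3232 circles, 1305 were above 0 in 1 library only, 234 were above 0 in all 12, and these 234 carried 64.8% of the class's signal. Starting from the most abundant, 83 circles made up 50% of it. In 810 circles (25.1%, against 23.5% of the whole table) the signal was above 0 in at least 6 libraries, and only these 810 entered the test of single circles. Their mean level had a median of 3.04 SRPBM with quartiles of 1.70 and 7.15. For the 234 circles the median coefficient of variation among mice was 28.4% in PZH and 28.3% in Control.

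The most abundant circle came from Adk, which encodes adenosine kinase, the enzyme that phosphorylates adenosine. Adk exons 5 to 6 had 254, 469, 380, 276, 230 and 312 SRPBM in the PZH livers and 534, 344, 516, 384, 390 and 234 in the Control livers. The groups overlapped widely, and the circle carried 89.2% of the signal of the 12 circRNAs of Adk. Rabep1 exons 3 to 4, from the gene of rabaptin-5, which acts in the fusion of early endosomes, followed at 223 ± 40.7 SRPBM in PZH and 228 ± 32.2 in Control (mean ± SD, n = 6 each here and below). Rad52 exons 10 to 11, from a gene of homologous recombination repair, had 214 ± 24.2 and 231 ± 32.7 SRPBM. The lead of Adk, Rabep1 and Rad52 was large: the 3 together carried 10.9% of the class's signal.

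Genes of liver metabolism and glycosylation were among the next. Abcc2 exons 5 to 6, from the canalicular pump for conjugated organic anions, had 99.2 ± 7.35 SRPBM in PZH and 108 ± 20.4 in Control. Ogdh exons 3 to 4, from the mitochondrial 2-oxoglutarate dehydrogenase, had 88.6 ± 14.1 and 87.7 ± 16.4 SRPBM. Alg12 exons 6 to 7, from a mannosyltransferase that builds the N-glycan precursor, carried 99.9% of the signal of its host's 2 circRNAs. Paip2 exons 5 to 6, from a repressor of translation that binds the poly(A)-binding protein, had 91.1 ± 10.5 and 108 ± 14.1 SRPBM. Fam160b1 exons 6 to 7 closed the list of 8 at 80.9 ± 5.54 and 81.8 ± 19.3 SRPBM. None of these 8 was called between the groups.

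Abundance followed no measured structure closely. Across the 810 circles (which share libraries and depth), Spearman's rho of the mean SRPBM was -0.0789 with exon length, -0.108 with inner intron length, -0.0295 and -0.0173 with the introns before and after, and 0.00278 with GC content. The 203 circles of the highest level had a median inner intron of 1314 bases and the 203 of the lowest level 1837 bases.

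Per junction, the class lay between circles of exons 2 to 3 and longer internal circles. The mean signal over all its junctions was below that of 2-exon circles of exons 2 to 3 (843 circles) by 2.77 ± 0.292 SRPBM (SD over 12 libraries) and was lower in 12 of 12 libraries (exact sign-flip permutation test, 2-sided, p = 0.000488, the smallest it can give; adjusted over 3 classes, 0.000732). Against internal circles of 3 or more exons (7854 circles) it was higher by 0.653 ± 0.173 SRPBM, in 12 of 12 libraries (same p). Against internal single-exon circles (395 circles) the mean was lower by 0.0965 ± 0.0842 SRPBM (higher in 2 of 12 libraries, exact sign-flip p = 0.00391, adjusted 0.00391). This last difference turned to 0.554 SRPBM higher when the 5 most abundant circles of each class were left out, so it has no stable direction.

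PZH livers gave a smaller share of their circRNA signal to internal 2-exon circles. The share was 18.8% to 20.4% in the 6 PZH livers (19.8 ± 0.569%) and 21.004% to 22.6% in the 6 Control livers (21.9 ± 0.641%). The groups did not overlap, and the mean fell by 2.10 percentage points (exact permutation test over all assignments of 6 of 12 libraries, 2-sided, p = 0.00216, the smallest it can give; adjusted over 5 measures of the class, 0.00541). Counted by circles rather than signal, 20.0 ± 0.442% of the circRNAs above 0 in a PZH liver were internal 2-exon circles and 21.4 ± 0.608% in a Control liver, again without overlap (exact permutation p = 0.00216, adjusted 0.00541). Shares of all classes add up to 100%, so a lower share of one goes with a higher share of another, and the share alone cannot tell which class moved.

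As deposited, the summed signal of the class did not differ beyond the spread between mice. SRPBM relates reads to the mapped reads of the library, so this sum is not an absolute amount of RNA. The summed signal was 7169 ± 843 SRPBM in PZH and 7679 ± 903 in Control, a difference of -510 SRPBM (exact permutation p = 0.314). The number of these circles above 0 was 1012.5 ± 85.2 and 1037 ± 126 (exact permutation p = 0.721). When libraries were rescaled by median of ratios, the summed signal differed by -709 SRPBM (exact permutation p = 0.00216). These factors came from the circRNAs above 0 in all libraries. The rescaled sum is thus relative to circRNA signal, as the share is, and is not a separate measure of the amount. The result for the sum therefore depends on the scaling.

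Shorter circles of other classes also had a lower share in PZH, and longer internal circles a higher one. Internal single-exon circles held 2.52 ± 0.0784% against 2.79 ± 0.0853% (no overlap, exact permutation p = 0.00216, adjusted over 5 classes 0.00271). The 2-exon circles of exons 2 to 3 held 11.6 ± 0.308% against 12.3 ± 0.548% (exact permutation p = 0.0152, adjusted 0.0152). Internal circles of 3 or more exons had a higher share (37.0 ± 0.516% against 35.3 ± 0.814%, no overlap, exact permutation p = 0.00216, adjusted 0.00271). The remaining circRNAs, outside these classes, also had a higher share (29.1 ± 0.422% against 27.7 ± 0.726%, no overlap, exact permutation p = 0.00216, adjusted 0.00271). The 5 shares add up to 100%, so they are not independent. The test of the ratio itself gave a log2 difference of -0.21 between internal 2-exon circles and longer internal circles (exact permutation p = 0.00216, adjusted over 3 ratios 0.00649, no overlap). Against circles of exons 2 to 3 the log2 ratio differed by -0.06 (exact permutation p = 0.113, adjusted 0.169), and against single-exon circles by -0.0006 (exact permutation p = 0.987), where the group means were 2.97 ± 0.0709 and 2.97 ± 0.0432.

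**Figure D2:**
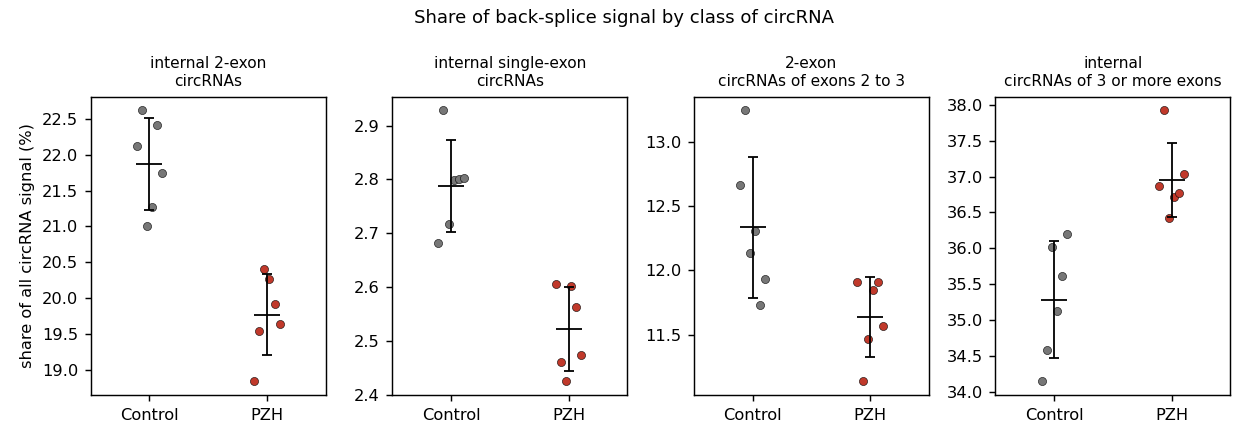
Percent of all circRNA signal in 4 classes of circle, by group; each point is 1 liver, the horizontal mark is the mean and the error bar is 1 SD (n = 6), and each panel has its own axis, which does not start at 0. Internal 2-exon circles lie at 21.004% or more in every Control liver and at 20.4% or less in every PZH liver, and internal circles of 3 or more exons lie higher in PZH.

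Host genes that made both kinds of circle gave the same picture. These hosts held most of the signal of both classes, so their ratio is not independent of the class ratio. In PZH their internal 2-exon circles held 14.7% of all signal, of 19.8% for the class. Their longer internal circles held 27.8%, of 37.0%. In 1415 hosts with 2454 internal 2-exon circles and 5024 internal circles of 3 or more exons, the summed signal of the former was 0.529 ± 0.0222 of the latter in PZH (range 0.501 to 0.551) and 0.624 ± 0.0295 in Control (range 0.574 to 0.657). The log2 ratio differed by -0.24 without overlap (exact permutation p = 0.00216), and by -0.262 to -0.222 when 1 library was left out. The 778 internal 2-exon circles of hosts without such longer circles also held a lower share of all signal in PZH. It was 5.09 ± 0.263% against 5.63 ± 0.313% in Control (exact permutation p = 0.0130, adjusted over 4 measures 0.0130). In the 1415 hosts with both, the share was 14.7 ± 0.403% against 16.2 ± 0.496% (exact permutation p = 0.00216, no overlap). The comparisons by host, the ratios between classes and the comparisons by position, exon length and other structure that follow were chosen after values were seen. Narrowed to circles with 1 splice site in common, 1860 internal 2-exon circles and the 3009 longer circles of the same gene that share exactly 1 end with them differed likewise. The partners are longer by construction, so these pairs also differ in exon length. The 2-exon circles of these pairs are part of the class tested above, so their ratio is not a separate result. The 2-exon circles of these pairs held 13.97 ± 0.321% of all signal in PZH and 15.6 ± 0.486% in Control, and their longer partners 25.6 ± 0.570% and 24.0 ± 0.384%. The log2 ratio differed by -0.25 (exact permutation p = 0.00216, no overlap). Among tested circRNAs of these sets, the median log2 fold change was -0.05 for 617 internal 2-exon circles and 0.15 for 954 longer partners.

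The lower share was spread over many circles. Of the -2.10 points, Adk exons 5 to 6 made up -0.254 points, the 10 most negative circles together -0.658 points and the 234 circles present in all 12 libraries -1.27 points. Of those 234, 155 contributed negatively, a count from the same values as the sum and so not a separate result. Leaving out each library in turn gave differences between -2.27 and -1.91 points, each with an exact permutation p of 0.00216. Every group by position was lower in PZH: circles starting at exon 3 held 4.62% against 4.97% of all signal (exact permutation p = 0.0130), those starting at exons 4 to 7 held 7.44% against 8.43% (p = 0.00216, no overlap), those at exons 8 to 15 held 5.43% against 5.96% (p = 0.0108) and those at exon 16 or later held 2.27% against 2.51% (p = 0.00866). The adjusted p was 0.0130 or lower for each of the 4 groups.

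Exon length moved with the share. Over all circRNAs matched to a transcript, the signal-weighted mean exon length was 427.5 ± 7.28 bases in PZH and 408.3 ± 9.88 in Control (exact permutation p = 0.00433, adjusted over 3 sets 0.00649). Within the internal 2-exon circles it was 300.3 ± 3.66 against 294.3 ± 1.95 bases (exact permutation p = 0.00866, adjusted 0.00866). By length, internal 2-exon circles of up to 200 bases held 3.13 ± 0.172% of all signal in PZH and 3.63 ± 0.181% in Control without overlap, and those over 400 bases held 1.59 ± 0.0720% and 1.54 ± 0.101% (exact permutation p = 0.377). The circles of over 200 to 250, over 250 to 300 and over 300 to 400 bases each had a lower share in PZH (exact permutation p between 0.00433 and 0.00649, adjusted 0.00812). All other circRNAs of up to 200 bases also had a lower share, 4.78 ± 0.247% against 5.53 ± 0.2497%, and those over 400 bases a higher one, 39.6 ± 1.11% against 36.1 ± 1.60%, both without overlap (exact permutation p = 0.00216, adjusted 0.00541).

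Among circRNAs of similar length, the lower share passed the adjusted test in 1 of 5 length bins. Internal 2-exon circles held 39.6 ± 1.76% of the signal of circRNAs of up to 200 bases in PZH and 39.6 ± 1.15% in Control (exact permutation p = 0.974). They held 35.3 ± 1.21% and 36.0 ± 1.11% at over 200 to 250 bases (exact permutation p = 0.333) and 3.86 ± 0.119% and 4.12 ± 0.382% above 400 bases (p = 0.141). At over 250 to 300 bases they held 42.8 ± 1.41% and 45.4 ± 1.94% (exact permutation p = 0.0281, adjusted over 5 bins 0.0703). At over 300 to 400 bases they held 22.8 ± 0.669% against 24.3 ± 0.386% (exact permutation p = 0.00649, adjusted 0.0325), a difference of -1.57 points that ran from -1.82 to -1.44 without 1 library. Splitting the class at the median of exon length, inner intron, shorter flanking intron, first exon number or GC content gave a lower share in PZH on both sides of the median each time. The ratio between the sides did not differ beyond the spread between mice for any of the 5 measures (smallest exact permutation p = 0.0844, adjusted 0.422, for exon length).

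**Figure D3:**
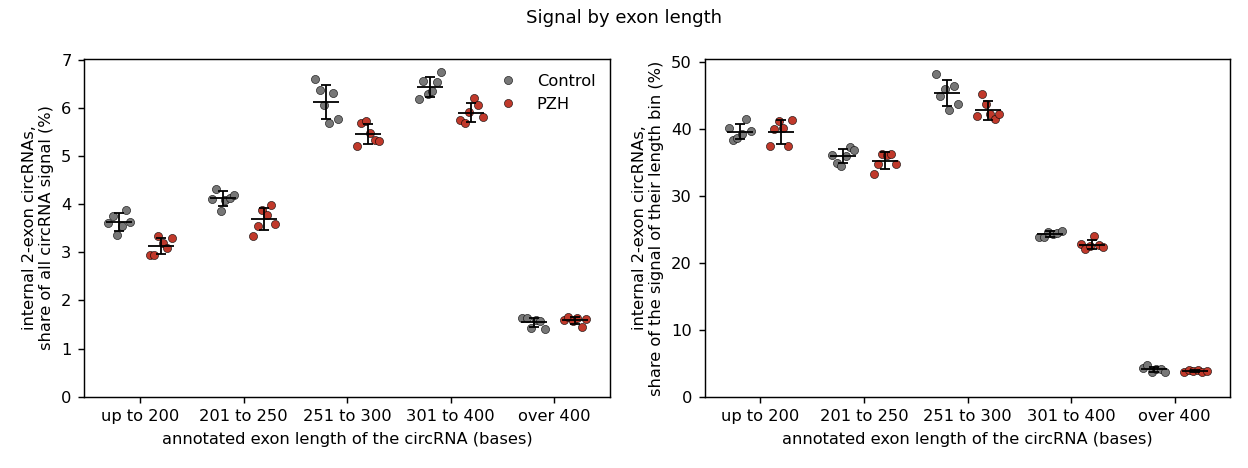
Internal 2-exon circles by annotated exon length in bases: left, their percent of all circRNA signal; right, their percent of the signal of all circRNAs in the same length bin. Points are livers (grey Control, red PZH), marks are means and bars 1 SD (n = 6); the left panel shows lower PZH values in the bins up to 400 bases, and the right panel shows equal means of 39.6% at up to 200 bases and 22.8% against 24.3% at over 300 to 400 bases.

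No single internal 2-exon circle was called between PZH and Control. Of 810 tested, 0 had an adjusted p under 0.05 in limma with Benjamini-Hochberg adjustment over all 3870 circRNAs (2 of 3870 were called, 0.0517%). The smallest adjusted p was 0.365. At an unadjusted p under 0.05, 18 circles were higher in PZH (2.22%, against a background of 4.55%) and 40 were lower (4.94%, against 3%). The log2 fold change, on the scale of log2(SRPBM + 0.636), was negative for 433 of 810 circles (53.5%, against 45.7% of all tested), with a median of -0.04 against 0.06 for all tested circRNAs. Single libraries moved these counts: 11 circles were higher without PZH replicate 2 and 9 without PZH replicate 3, and 26, 25 and 23 were lower without Control replicates 3, 4 and 5. The counts over all tested circRNAs moved as well, from 176 higher and 116 lower in the reported fit. They were 130 and 125 higher without these PZH livers, and 79, 90 and 81 lower without these Control livers. An exact rank-sum test in place of limma called 0 circles and gave 21 higher and 37 lower at an unadjusted p under 0.05. Over all 3870 circRNAs it called 0 and gave 162 higher and 104 lower.

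**Figure D4:**
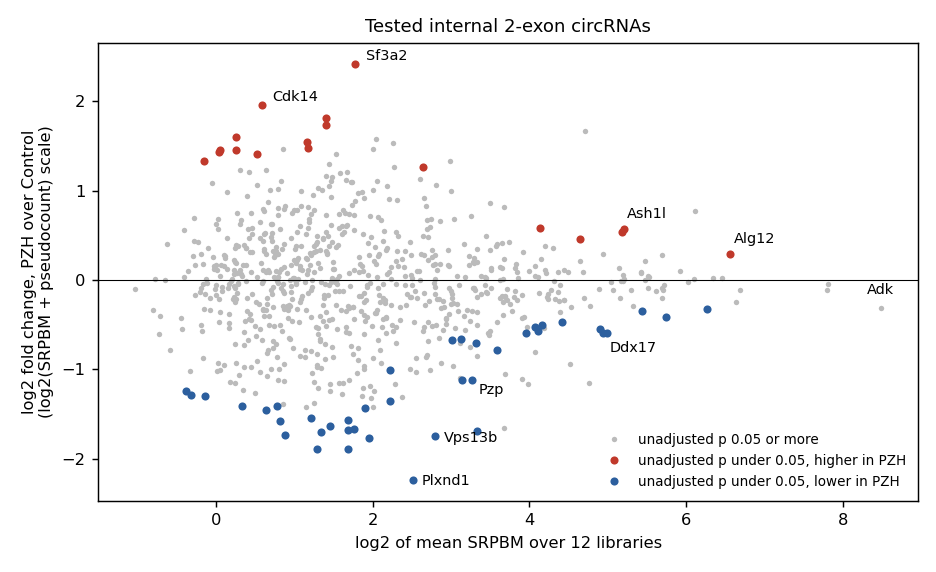
The 810 tested internal 2-exon circRNAs, with the log2 of mean SRPBM over 12 libraries on the horizontal axis and the log2 fold change of PZH over Control on the vertical axis. Red and blue points have an unadjusted p under 0.05 in limma (18 higher and 40 lower), none passes after adjustment, and the low-level circles spread more widely than the abundant ones.

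Separated groups were found for 5 circles that were lower in PZH (0.617% of 810, against a background of 0.181%) and for 1 that was higher (0.123%, against 0.491%). Ddx17 exons 3 to 4, from a DEAD-box RNA helicase that acts in splicing and transcription, had 17.8, 28.2, 24.2, 26.5, 28.9 and 21.7 SRPBM in PZH and 34.1, 37.4, 35.2, 39.4, 37.7 and 36.6 in Control. Every PZH liver was below every Control liver, and the Control livers lay close together. The log2 fold change was -0.59 (SE 0.16, adjusted p = 0.365). The 3-exon circle of Ddx17 exons 2 to 4, which shares the end of exon 4, had a log2 fold change of -0.12 (SE 0.32). Another internal 2-exon circle of the gene, exons 9 to 10, went the other way. Its log2 fold change was 0.77 in the fit without a filter, and it was not called in the reported fit.

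Pzp encodes a protease inhibitor of the alpha-2-macroglobulin family that the mouse liver secretes. Pzp exons 16 to 17 had 2.40, 5.90, 8.80, 4.16, 9.49 and 6.00 SRPBM in PZH and 14.2, 11.4, 12.3, 11.5, 16.95 and 11.9 in Control. The highest PZH liver was below the lowest Control liver, and the log2 fold change was -1.11 (SE 0.32, adjusted p = 0.388). Longer Pzp circles with the same last exon had log2 fold changes of -0.15 (exons 15 to 17, SE 0.31) and -0.27 (exons 14 to 17, SE 0.37). Pzp exons 16 to 17 was called when only circRNAs above 0 in all 12 libraries were tested (adjusted p = 0.0274), and again when entries of 0 were treated as missing (adjusted p = 0.0304).

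Crebbp encodes the CREB-binding protein, a histone acetyltransferase and coactivator. Crebbp exons 4 to 5 had 19.9, 27.5, 23.4, 27.3, 18.97 and 27.3 SRPBM in PZH and 34.9, 28.0, 40.4, 35.1, 44.0 and 30.9 in Control. The groups were separated narrowly (27.5 against 28.0 at the edge), and the log2 fold change was -0.55 (SE 0.17, adjusted p = 0.454). Its share of the signal of the 10 Crebbp circRNAs had a log2 difference of -0.94 (SE 0.33, adjusted p = 0.579), and the 3-exon circle of exons 3 to 5 had a log2 fold change of 0.75 (SE 0.42).

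The last 2 of the 5 came from Zfp568, a KRAB zinc-finger repressor gene, and Dnajc1, the gene of a co-chaperone of the endoplasmic reticulum membrane. Zfp568 exons 5 to 6 ranged from 6.03 to 11.1 SRPBM in PZH and from 11.6 to 18.4 in Control (log2 fold change -0.78, SE 0.25, adjusted p = 0.454). Dnajc1 exons 7 to 8 ranged from 9.81 to 17.1 SRPBM and from 17.5 to 23.7, a log2 fold change of -0.56 with SE 0.21 and adjusted p = 0.551. The circle with separated groups in the other direction was C2cd2 exons 12 to 13, named after its values were seen, at 2.26 to 5.27 SRPBM in PZH and between 0 and 2.12 SRPBM in the Control livers.

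The 8 smallest p in the lower direction also included circles with overlapping groups. Vps13b exons 18 to 19, from a lipid transfer protein of the Golgi, had 5.12, 2.83, 0, 9.56, 2.94 and 1.42 SRPBM in PZH and 10.8, 8.08, 8.44, 15.6, 7.33 and 11.1 in Control. It overlapped through 1 PZH liver at 9.56 SRPBM, gave a log2 fold change of -1.75 with SE 0.52 and adjusted p = 0.408, and reached an adjusted p of 0.0304 when entries of 0 were treated as missing. Pmm2 exons 3 to 4, from the phosphomannomutase of N-glycan synthesis, had 25.6 ± 7.97 SRPBM in PZH and 37.9 ± 5.70 in Control (adjusted p = 0.454). Plxnd1 exons 10 to 11, from an endothelial semaphorin receptor, was listed at 0 in 4 of 6 PZH livers and 1 of 6 Control livers, with values of 5.47 and 9.36 SRPBM where above 0 in PZH and 8.59 to 14.7 in Control (adjusted p = 0.566).

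The circles with the smallest p among those higher in PZH were mostly low and often listed at 0 in Control. Cdk14 exons 3 to 4, from a cyclin-dependent kinase gene, had 2.41, 0.915, 1.29, 1.96, 4.62 and 5.32 SRPBM in PZH and 1.41 in 1 Control liver, with 0 in the other 5 (log2 fold change 1.96, SE 0.57, adjusted p = 0.408). Sf3a2 exons 7 to 8, from a subunit of the U2 snRNP and flanked by introns of 73 and 83 bases, had 0, 3.42, 11.2, 7.67, 4.59 and 9.36 SRPBM in PZH and 4.67 in 1 Control liver, with 0 in the others (2.42, SE 0.78, adjusted p = 0.454). Xpo1 exons 12 to 13 (nuclear export receptor), Utp4 exons 11 to 12 (processing of small-subunit ribosomal RNA) and Itpr2 exons 25 to 26 (a calcium release channel of hepatocytes) were above 0 in 5 or 6 PZH livers and in 1 Control liver each, at 4.12 SRPBM or less. Apart from Sf3a2, these circles reached at most 5.32 SRPBM, beside a smallest value per library of about 0.636 SRPBM, and an entry of 0 does not show absence.

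Alg12 exons 6 to 7 was the abundant circle of this group. It had 94.0, 112, 93.4, 110, 106 and 110 SRPBM in PZH and 80.7, 72.1, 107, 82.6, 86.7 and 82.9 in Control. All PZH livers lay above 5 of 6 Control livers, and the log2 fold change was 0.29 with SE 0.11 and adjusted p = 0.566. Ulk2 exons 21 to 22, from a kinase that starts autophagy, ranged from 0.680 to 7.06 SRPBM in PZH and was listed at 0 in 4 Control livers, with 3.55 and 3.397 SRPBM in the other 2. Ttc39c exons 9 to 10 had 43.2 ± 12.8 SRPBM in PZH and 29.6 ± 8.76 in Control (adjusted p = 0.566).

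**Figure D5:**
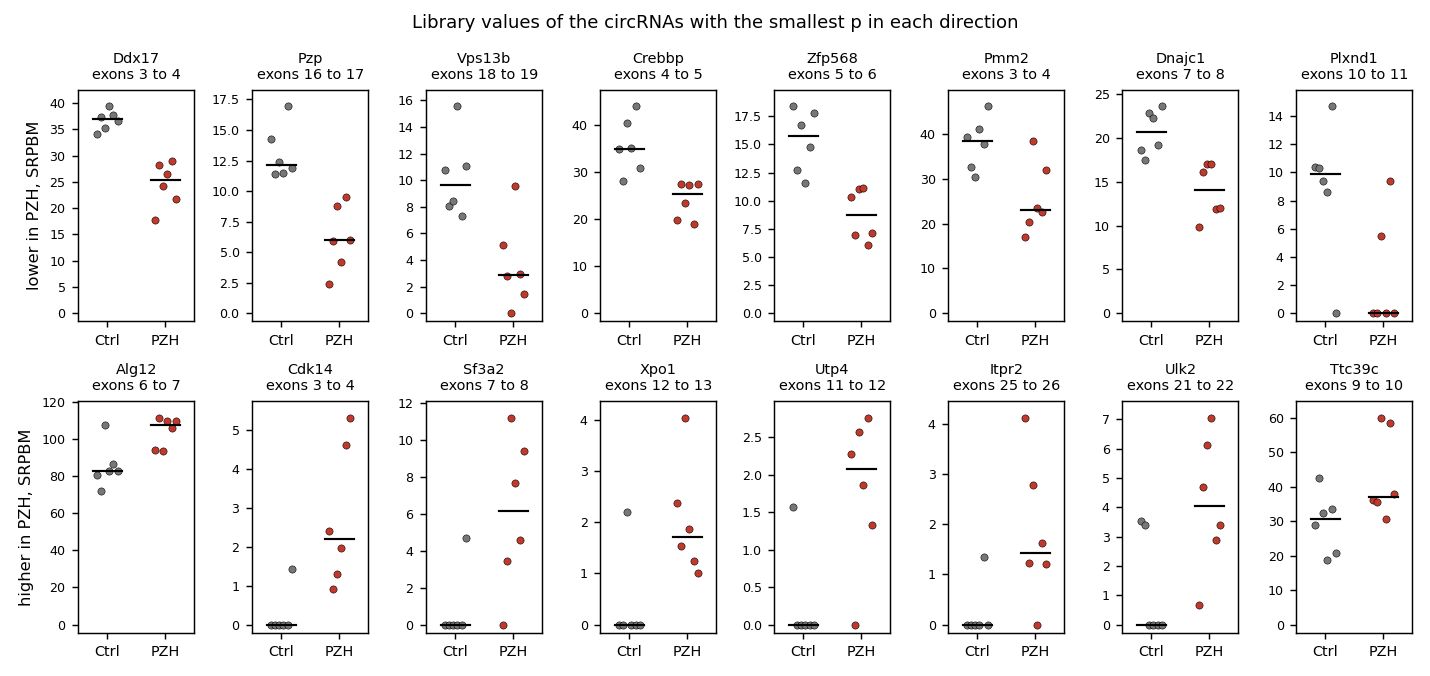
SRPBM of each liver for the 8 circles with the smallest p lower in PZH (top row) and the 8 higher in PZH (bottom row); grey points are Control, red points PZH, the line is the median of 6, and each panel has its own axis. The groups are separated for Ddx17, Pzp, Crebbp, Zfp568 and Dnajc1, while most circles of the bottom row are listed at 0 in 4 or 5 Control livers.

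Few circles were present in one group and nearly absent from the other. Of 3232 circles, 9 were above 0 in at least 5 PZH livers and at most 1 Control liver (0.278%, against 0.274% of all 16445 circRNAs), and 10 showed the opposite (0.309%, against 0.152%). Limk1 exons 9 to 10, from a kinase of cofilin, was above 0 in 5 PZH livers with values from 1.61 to 3.90 SRPBM and was at 0 in every Control liver. Fgl1 exons 4 to 5, from a fibrinogen-like protein that hepatocytes secrete, was listed at 0 in all 6 PZH livers and had 3.82 to 7.65 SRPBM in 5 Control livers. Abca7 exons 10 to 11, from a lipid transporter, was likewise listed at 0 in all PZH livers and reached 4.69 SRPBM in Control. Mllt10 exons 7 to 8, Fkbp5 exons 5 to 6 and Rps6ka3 exons 9 to 10 were above 0 in 5 Control livers and 1 PZH liver.

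Set against the other circRNAs of the same host, internal 2-exon circles leaned downward in PZH. Of 401 with such a ratio, 0 were called (limma, adjusted over 2004 circRNAs, of which 0.0499% were called). The ratio was lower at an unadjusted p under 0.05 for 24 (5.99%, against a background of 3.44%) and higher for 7 (1.75%, against 3.79%). The log2 difference was negative for 258 (64.3%, against 50.6%), with a median of -0.21 against -0.01. Dtnb exons 14 to 15, from a dystrobrevin gene, had 2.78 ± 0.6002 SRPBM in PZH and 6.54 ± 2.63 in Control, and its log2 share difference was -1.35 (SE 0.38, adjusted p = 0.438). Zcchc17 exons 6 to 7 had 7.88 ± 1.74 and 11.04 ± 2.52 SRPBM, while the 4-exon circle of Zcchc17 exons 4 to 7, which shares the end of exon 7, had 16.4 ± 1.92 and 11.1 ± 2.21 (log2 fold change 0.55, SE 0.22, adjusted p = 0.578). In the other direction, Paip2 exons 5 to 6 had a log2 share difference of 0.96 (SE 0.27, adjusted p = 0.438) beside a level that was itself lower in PZH. Its host's second circle, the single exon 6, had 3.12 ± 1.01 SRPBM in PZH and 7.97 ± 2.28 in Control.

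None of the circles of hosts with several tested circles was called. The 5 circles of Rabep1 had log2 fold changes of -0.61, -0.29, -0.04, 0.06 and 0.09, and exons 3 to 4 alone carried 64.9% of the signal of 28 Rabep1 circRNAs. Ash1l, a histone H3 methyltransferase gene, gave exons 4 to 5 at 43.3 ± 11.9 SRPBM in PZH and 30.4 ± 12.2 in Control (log2 fold change 0.57, SE 0.25, adjusted p = 0.613) and exons 11 to 12 at 5.46 ± 2.26 and 5.82 ± 2.91. Ash1l exons 6 to 7, the third, ranged from 1.22 to 6.20 SRPBM in PZH and from 0 to 4.42 in Control (log2 fold change 0.84, SE 0.58, adjusted p = 0.743). The 4 circles of Kif16b, an endosomal kinesin gene, were each listed at 0 in some livers of both groups. Kif16b exons 16 to 17 reached 19.3 SRPBM in PZH and 18.1 in Control with 2 and 1 livers at 0.

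Grouped by the role of the host gene, no list held a called circle. Of all tested circRNAs, 4.55% were higher and 3% lower in PZH at an unadjusted p under 0.05 in limma. Of the 810 internal 2-exon circles, 2.22% were higher and 4.94% lower. Liver metabolism and transport had 51 tested circles, 1 higher and 4 lower at an unadjusted p under 0.05, and a median log2 fold change of -0.18 (all 236 tested circRNAs of the same genes had 0.03). Scp2 exons 13 to 14, from the sterol carrier protein gene, had 45.7 ± 9.02 SRPBM in PZH and 61.1 ± 11.1 in Control (adjusted p = 0.566), and Acat1 exons 4 to 5, from mitochondrial acetyl-CoA acetyltransferase, had 17.7 ± 1.91 and 25.1 ± 4.99 (adjusted p = 0.578). RNA binding, splicing and decay had 43 circles, 1 higher and 3 lower, with a median of -0.20 (0.01 for all 168 tested circRNAs of the same genes). Chromatin and transcription had 60, 2 higher and 5 lower, with a median of -0.06 (0.12 for all 273 of the same genes). The medians of 8 of the 10 lists were below 0, as was the median of all 810 internal 2-exon circles (-0.04), beside 0.06 for all tested circRNAs.

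In the remaining lists, likewise without a called circle, kinases and phosphatases had 40 tested circles, 4 higher and 2 lower, with a median of 0.04; Clk1 exons 6 to 7, from a kinase of splicing factors, was their most abundant at 36.4 ± 9.004 SRPBM in PZH and 44.0 ± 7.26 in Control. DNA repair and cell cycle had 23 circles with 0 higher and 0 lower and a median of 0.13. Membrane traffic and cytoskeleton had 64 (0 higher, 2 lower, median -0.14), the ubiquitin and SUMO pathway 43 (0 higher, 2 lower, median -0.04) and plasma proteins and secretion 17 (0 higher, 1 lower, median -0.17). All tested circRNAs of the same genes had medians of 0.06 for kinases and phosphatases, 0.14 for DNA repair and 0.08 for membrane traffic. They were 0.01 for the ubiquitin and SUMO pathway and -0.14 for plasma proteins. Scar tissue, stellate cells and TGF-beta had 7 circles with 0 past the unadjusted threshold in either direction. Their median was -0.21, beside 0.09 for all 48 tested circRNAs of the same genes. The smallest p in that list was that of Zeb2 exons 4 to 5, from a transcriptional repressor gene, with 1.47, 0, 0.964, 0, 0 and 0.666 SRPBM in PZH and 0, 4.33, 2.56, 3.47, 2.40 and 1.07 in Control (log2 fold change -1.26, SE 0.63, adjusted p = 0.654). The list's most abundant circle, Yap1 exons 3 to 4, from the Hippo pathway coactivator, had 5.48 ± 2.23 SRPBM in PZH and 4.56 ± 1.63 in Control. Immune and endothelial cells had 6 circles, 1 higher and 1 lower, with a median of -0.14 (0.03 for all 39 tested circRNAs of the same genes). Among them, Adgre1 exons 11 to 12, from the macrophage marker F4/80, had 28.9 ± 6.59 SRPBM in PZH and 21.2 ± 5.78 in Control (adjusted p = 0.620).

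Depth was 80442 to 130487 read-pair equivalents per library over all circRNAs (the smallest value above 0 in a library taken as 2), without a group difference (exact permutation p = 0.647). Cell type was checked through circRNAs of marker genes. Of 10 hepatocyte markers 8 gave circRNAs, which summed to 414 to 516 SRPBM in PZH and 371 to 537 in Control (exact permutation p = 0.152, adjusted over 5 cell types 0.189). Of 11 stellate and fibroblast markers only Dlc1, Reln and Zeb2 gave any, at 8.93 to 21.03 SRPBM in PZH and 1.78 to 9.5999 in Control (exact permutation p = 0.00433, adjusted 0.0216), and the internal 2-exon circles among them summed to 0.916 to 5.34 and 1.78 to 4.47 (exact permutation p = 0.935). The internal 2-exon circles of endothelial markers, from 4 of 9 genes with Plxnd1 leading, summed to 0 to 9.36 and 5.54 to 14.7 SRPBM (exact permutation p = 0.00866, adjusted 0.0433). The highest sums, 9.36 and 14.7 SRPBM, were the values of Plxnd1 exons 10 to 11 alone. That circle was named above for its small p and was not called (limma, adjusted p = 0.566). The sum is therefore not separate from that circle. All endothelial marker circRNAs, from 6 of 9 genes, summed to 2.39 to 14.9 and 10.6 to 20.5 SRPBM (exact permutation p = 0.0649, adjusted 0.152). Macrophage markers (5 of 9 genes) gave 40.6 to 59.8 and 33.2 to 54.0 SRPBM and cholangiocyte markers (2 of 7) 68.3 to 99.5 and 57.8 to 101 (exact permutation p = 0.232 and 0.0909). The part of these markers in the lower share was not tested, and in whole liver RNA fewer cells of a type and less RNA per cell cannot be told apart.

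Circles on either side of the limit of 50000 bases were mostly low. Just inside it were Fam172a exons 7 to 8 (2 PZH livers above 0, up to 1.83 SRPBM) and Meis2 exons 7 to 8 (2 Control livers, up to 1.09 SRPBM). Just outside were Mbd5 exons 4 to 5 (1 Control liver, 1.32 SRPBM) and Cpq exons 4 to 5, which had 9.83 ± 5.17 SRPBM in PZH and 7.45 ± 5.51 in Control.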

How the data were processed

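RNA of 12 livers (6 PZH, 6 Control) was extracted with Trizol and made into TruSeq libraries for Illumina sequencing, per the labels' protocols. Per the submitters' processing notes, Trim Galore and STAR were used with GRCm38 (mm10). For their versions, the circRNA caller and the formula behind SRPBM, no source used here gives a statement. The deposited signal in SRPBM, normalized by the authors, was used as it stands; an entry of 0 is called listed at 0, and a circRNA with any 0 is given by its range. The number of reads behind a value is known only approximately, and group values carry the spread between mice.

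Circles were matched to GENCODE M21 transcripts, and 15705 of 16445 matched a transcript of any type. Where several matched, protein-coding transcripts came first, then tag basic, then most exons, then the smallest identifier. CircRNAs above 0 in at least 6 libraries were tested with limma 3.58.1 (variance trend) in R 4.3.3 on log2(SRPBM + 0.636), the pseudocount being the median of the libraries' smallest values, with Benjamini-Hochberg adjustment at 0.05. The share of the host used the ratio to its other circRNAs. Values per library were compared by exact permutation (Python 3.11.15, numpy 2.4.6), and Spearman's rho was computed with scipy 1.17.1. The fit was tested on simulated data.

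Named circles were the 8 most abundant, the 8 smallest p in each direction, up to 5 per direction by presence, 4 hosts with most circles, per list the 2 smallest p and the most abundant, up to 3 per direction by host share, and 2 on each side of the length limit; 1 of these hosts is not reported here. Members and lists were chosen with earlier results of these data known. Alternatives covered scaling, pseudocount, filters, zeros, replicate block, transcript choice and each library left out.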

Additional observations from a re-analysis of the deposited data

Results flagged for a closer look

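Single livers stood far from the other 5 of their group in 16 of 186 groups of values (8.60%), by a gap to the nearest other liver beyond Dixon's 95% critical share of the group's range. Chance sets apart about 1 group in 20, but the counts cannot be compared: in 10 of the 16 groups the liver was the only one above 0, so the gap is the whole range by construction, and several of these circles were named for being present in few livers of a group. Among Control livers these were Cdk14 exons 3 to 4 at 1.41 SRPBM (replicate 6), Sf3a2 exons 7 to 8 at 4.67 (replicate 6), Xpo1 exons 12 to 13 at 2.20 (replicate 3), Utp4 exons 11 to 12 at 1.57 (replicate 1), Itpr2 exons 25 to 26 at 1.35 (replicate 5) and Mbd5 exons 4 to 5 at 1.32 (replicate 5). Among PZH livers they were Mllt10 exons 7 to 8 at 0.681 SRPBM and Fkbp5 exons 5 to 6 at 1.14 (both replicate 1), and Rps6ka3 exons 9 to 10 at 5.15 and Herc6 exons 11 to 12 at 1.52 (both replicate 3).

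In the other groups 1 liver was highest. Adgre1 exons 11 to 12, the macrophage marker circle, had 41.8 SRPBM in PZH replicate 3, and Cnksr3 exons 3 to 4 had 25.4 there. Ash1l exons 11 to 12 had 9.83 SRPBM in PZH replicate 3 and 11.4 in Control replicate 5. Rabep1 exons 7 to 8 had 8.38 SRPBM in PZH replicate 4, and Kif16b exons 24 to 25 had 4.37 in PZH replicate 5.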

How the results depend on the processing

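The lower share of internal 2-exon circles in PZH kept its direction and passed its test with circRNAs above 0 in all 12 libraries (-1.92 points), with the class set by every matching transcript (-1.69) or by any (-2.08), and without each library in turn. In the reported fit 0 of 810 circles were called, beside 2 of all 3870 circRNAs. With only circRNAs above 0 in all 12 libraries, 1 of 234 was called, beside 10 of all 1089. Without a filter 5 of 3232 were called, beside 30 of 16445, and with zeros as missing 2 of 794, beside 12 of 3813. The 5 without a filter were Adk exons 5 to 6 (adjusted p = 2.86e-27, with overlapping groups), Slc25a30 exons 4 to 5, Ddx17 exons 9 to 10, Ilkap exons 6 to 7 and Fgl1 exons 4 to 5. The cause was not tested. The counts higher and lower at an unadjusted p under 0.05 (18 and 40) were 10 and 23 for circRNAs in all 12 libraries, 9 and 29 in at least 9, 34 and 67 in at least 3, and 40 and 70 without a filter, as fewer or more circRNAs were tested. Over all circRNAs these counts were 176 and 116 in the reported fit, and 86 and 48 of 1089 in all 12 libraries. They were 126 and 80 of 2362 in at least 9, 282 and 222 of 6834 in at least 3, and 294 and 230 of 16445 without a filter. Leaving out a library gave 9 to 24 higher, 23 to 44 lower and 0 called circles. Over all circRNAs, leaving out a library gave 125 to 209 higher, 79 to 136 lower and 1 to 3 called. For the host share it gave 5 to 10 higher and 21 to 29 lower with 0 called. The summed signal differed by -709 SRPBM with median-of-ratios scaling, where it passed its test. The number of circles above 0 differed by -63.7 to 6.2 without 1 library. The difference from internal single-exon circles reversed to 0.00436 on the log2 scale for median levels and to 0.554 SRPBM without the 5 most abundant circles of each class.

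Replicate numbers were shared by the groups but did not pair the livers: same-numbered deviations correlated between -0.122 and 0.0299, and no library matched its own number best. With the replicate block, 0 circles were called and 18 and 40 lay past the unadjusted threshold. Over all 3870 circRNAs 1 was called there, and 163 and 111 lay past that threshold. The share differed by -2.10 points (exact p = 0.0312, the smallest 6 pairs allow).

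Of 1123 alternative values for 59 named circles, 1082 kept direction and side of the threshold, 2 passed it (Pzp exons 16 to 17, -1.11, and Vps13b exons 18 to 19, -1.29, with zeros as missing) and 39 reversed; the reversed circles had log2 fold changes between -0.29 and 0.09 in the reported fit, except 3 circles of Kif16b with -0.57, -0.53 and -0.54. With median-of-ratios, quantile and summed-signal scaling, Ogdh exons 3 to 4 gave -0.0187, -0.0548 and -0.0248, Fam160b1 exons 6 to 7 gave -0.0183, -0.0206 and -0.0244, and Ncoa2 exons 3 to 4 gave -0.0255, -0.0407 and -0.0316. With zeros as missing, Rabep1 exons 6 to 7 gave -0.214, Rabep1 exons 11 to 12 gave 0.0472, and Kif16b exons 16 to 17, 19 to 20 and 24 to 25 gave 0.266, 0.510 and 0.326; Rabep1 exons 6 to 7 also gave -0.00117 with pseudocount 2 and -0.0250 with quantile scaling. Over the fits without 1 library, the range was -0.115 to 0.0195 for Rabep1 exons 3 to 4, -0.0484 to 0.0820 for Ogdh, -0.125 to 0.104 for Fam160b1, -0.214 to 0.201 for Rabep1 exons 6 to 7, -0.151 to 0.253 for Rabep1 exons 7 to 8, -0.520 to 0.0472 for Rabep1 exons 11 to 12, -1.31 to 0.0642 for Kif16b exons 16 to 17, -0.220 to 0.149 for Ash1l exons 11 to 12, -0.0705 to 0.119 for Ncoa2 and -0.0272 to 0.179 for Ern1 exons 7 to 8.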
